A study of Mus musculus with 10 samples.

Results

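The subject here is 10 genes for serine proteases of the cell surface and their inhibitors in the mouse uterus, found by symbol among the 45706 genes of the count table. The proteases were *Tmprss11d*, *Tmprss11e*, *Tmprss2*, *Tmprss4*, *St14*, *Prss8*, *Prss22* and *Hpn*, and the inhibitors were *Spint1* and *Spint2*. The genes were put together and chosen by a model that knew the genotype fold changes of these same libraries, so their differences between genotypes are given as a description, with no test. Uteri were taken at GD 3.5, before decidualization, from 5 control *Arid1a f/f* females and 5 *Ltf iCre/+ Arid1a f/f* females, called iCre uteri in what follows. Both groups carried floxed *Arid1a* alleles, and in iCre females Cre was made from the lactoferrin (*Ltf*) locus and removed *Arid1a*, a subunit of the SWI/SNF chromatin remodeling complex, in the endometrial epithelium. The authors state that this Cre has also been reported in neutrophils and other myeloid cells. They could not exclude a contribution of *Arid1a* loss in those cells. The females were 12 to 15 weeks old, of mixed C57BL/6, 129S6/SvEvTac, 129P2/OlaHsd and 129S1/SvImJ background, and were mated with wildtype males. RNA came from whole uterine tissue with stroma, muscle and blood cells, so that fewer cells of a type and less RNA per cell cannot be told apart. Library labels give the genotype and a replicate number, and the authors count n as animals.

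Serine proteases of this class are made as inactive precursors that sit on or near the membrane of epithelial cells and are switched on by cleavage. Matriptase (*St14*) and prostasin (*Prss8*) act in 1 linked system at epithelial junctions, where they cut growth factor precursors, the protease-activated receptor PAR2 and sodium channel subunits. The Kunitz-type inhibitors HAI-1 (*Spint1*) and HAI-2 (*Spint2*) are membrane proteins too and hold these enzymes in check. In the uterus, sodium channels, tight junctions and the release of growth factors at the luminal surface are among the processes that such enzymes can reach around the time of embryo attachment.

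Counts assigned to genes lay between 65351817 and 72702411 in control libraries and between 59296537 and 67990486 in iCre libraries. Values are in CPM (counts per TMM-normalized library, scaled to a common size). *Arid1a* itself stood at 213 ± 22.9 CPM in controls and at 185 ± 15.9 CPM in iCre uteri (SD over 5 mice), a difference in whole-organ RNA that edgeR did not call (adjusted p = 0.201). *Ltf*, whose locus carries the Cre, had 23.6 to 2831 CPM in iCre uteri against 4.75 ± 3.92 CPM (SD, n = 5) in controls. The iCre uteri were unevenly spread: replicates 1 and 5 stood apart from replicates 2, 3 and 4 for many of the genes below, and replicate 5 alone held 290 CPM of the neutrophil gene *S100a8*, named for that value, against at most 0.726 CPM in the other iCre uteri and 1.26 CPM in controls. Fold changes of the members other than *Tmprss11d*, whose fold is a bound, and of some further genes are therefore also given without replicates 1 and 5. This alternative was chosen after the data had been seen.

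Across all 25146 genes tested by edgeR, 9.7% had an adjusted p under 0.05, and 5.19% were past that threshold and higher in iCre uteri. Of the 10 protease and inhibitor genes 7 were past it, all higher, a count that the choice of the genes already contained and from which nothing is read. Their median log2 fold change was 1.09 beside 0.03 for all genes tested. In 5 of the 10 genes (*Tmprss11d*, *Tmprss4*, *St14*, *Prss22* and *Spint1*) all 5 iCre uteri lay above all 5 controls, a pattern that 5.53% of tested genes had in this direction. Replicate 1 was the highest of all 10 uteri for 6 genes, replicate 5 for 3, and replicate 4 for *Tmprss2*.

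**Figure D1:**
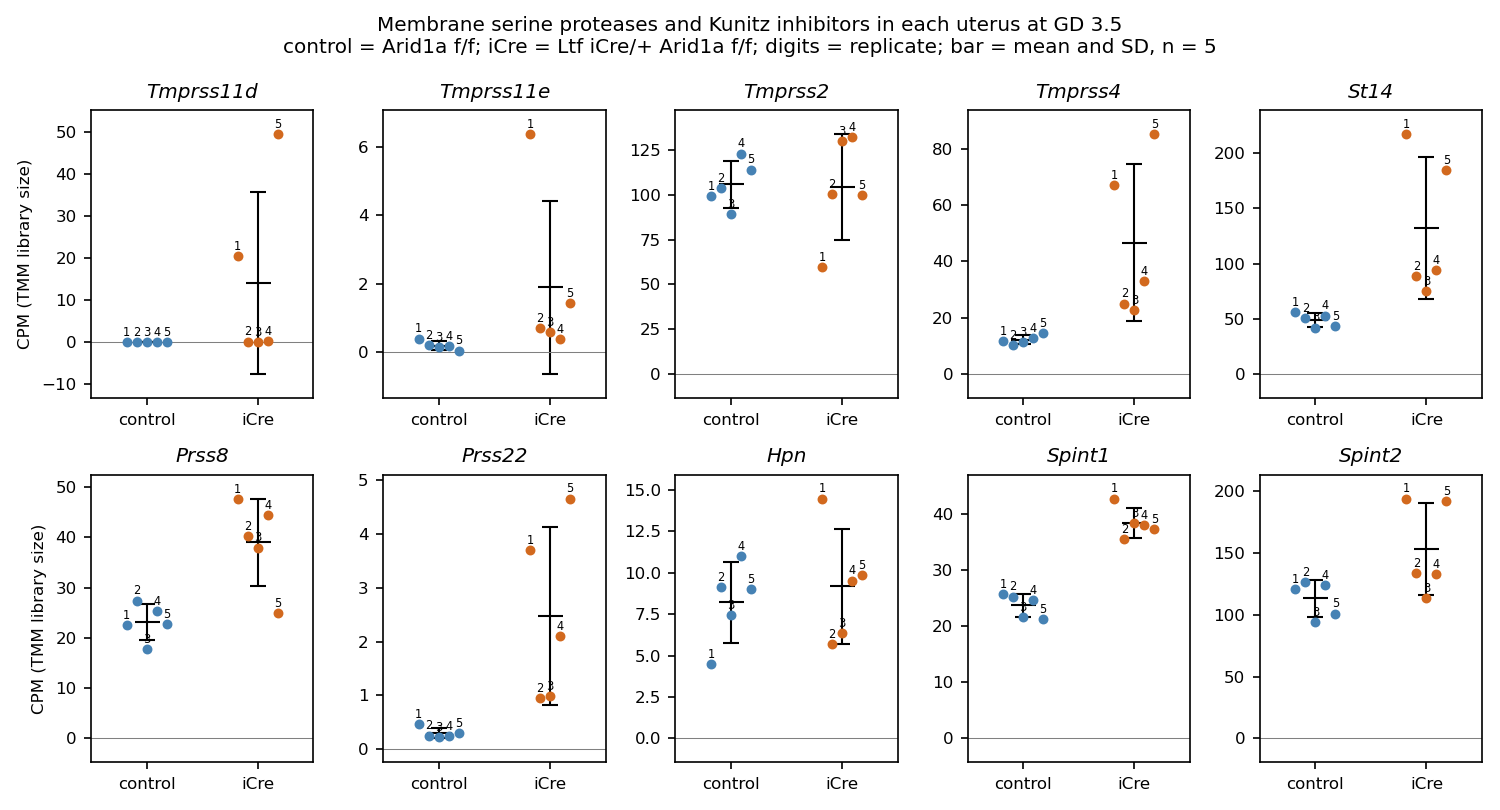
CPM of each of the 10 genes (y axis, own scale per panel) in the 5 control and 5 iCre uteri (x axis), with points numbered by replicate and bars for mean and SD. The iCre points of Tmprss4, St14, Prss22 and Spint1 lie above every control, and those of Tmprss2 and Hpn lie among or around them.

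The 2 genes of the Tmprss11 group among the members were scarce. *Tmprss11d* (ENSMUSG00000061259, chromosome 5, 86302217 to 86373420 of GRCm38) encodes the airway trypsin-like protease of surface epithelia. Controls gave 0 counts in 4 uteri and 1 count in replicate 3. In iCre uteri it had 20.6, 0.152, 0.114, 0.203 and 49.5 CPM in replicates 1 to 5, from 1314, 9, 7, 14 and 3422 counts. Every iCre uterus was thus above every control, but nearly all of the transcript was in replicates 1 and 5. Since no control passed 3 counts, a floor of 0.0433 CPM per library, the fold is a bound: the iCre mean of 14.1 ± 21.7 CPM (SD, n = 5) was at least 326-fold higher and the iCre median of 0.203 CPM at least 4.70-fold higher. The mean rests on replicates 1 and 5, and replicates 2, 3 and 4 lay at a few counts above the floor.

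*Tmprss11e* (ENSMUSG00000054537, chromosome 5, 86705186 to 86745815), the gene of the protease DESC1, was detected in all 10 uteri. Controls had 0.392, 0.195, 0.141, 0.185 and 0.0431 CPM in replicates 1 to 5. The iCre uteri had 6.37, 0.693, 0.589, 0.378 and 1.43 CPM. Replicate 1 was the highest here, where replicate 5 was for *Tmprss11d*, and replicate 4 lay just inside the control range. The log2 fold change was 3.29 (SE 0.83), a 9.79-fold difference, and it was 2.00 without iCre replicate 1 and 1.52 (SE 0.51) without replicates 1 and 5. Noncoding genes on the opposite strand within *Tmprss11e* had at most 1 count.

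Both genes belong to a run of 7 Tmprss11 genes, all on the minus strand and with no other protein-coding gene among them, across 514 kb of chromosome 5 (86231481 to 86745815). Their order is *Tmprss11c*, *Tmprss11d*, *Tmprss11a*, *Tmprss11g*, *Tmprss11f*, *Tmprss11b* and *Tmprss11e*. *Tmprss11g*, which was not chosen as a member, was the most abundant gene of the run in controls, with 22.1 to 31.2 CPM. In iCre uteri it had 1.98 to 9.24 CPM, below every control, a pattern of 5.16% of tested genes. It fell 6.42-fold (log2 fold change -2.68, SE 0.39, adjusted p = 0.00273 by edgeR's quasi-likelihood test), and each omission of 1 uterus kept the log2 fold change between -3.24 and -2.51. *Tmprss11a* (adjusted p = 0.524), *Tmprss11b* (adjusted p = 0.697) and *Tmprss11f* (adjusted p = 0.916) did not pass the same edgeR test, and *Tmprss11c*, with at most 5 counts in a uterus, was not tested. Genes of 1 run therefore had opposite signs, with *Tmprss11d* and *Tmprss11e* higher and *Tmprss11g* lower, though none of these 3 genes lies next to another of them. These sequences are related, and the share of reads lost or moved between them in the authors' counting was not tested.

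**Figure D2:**
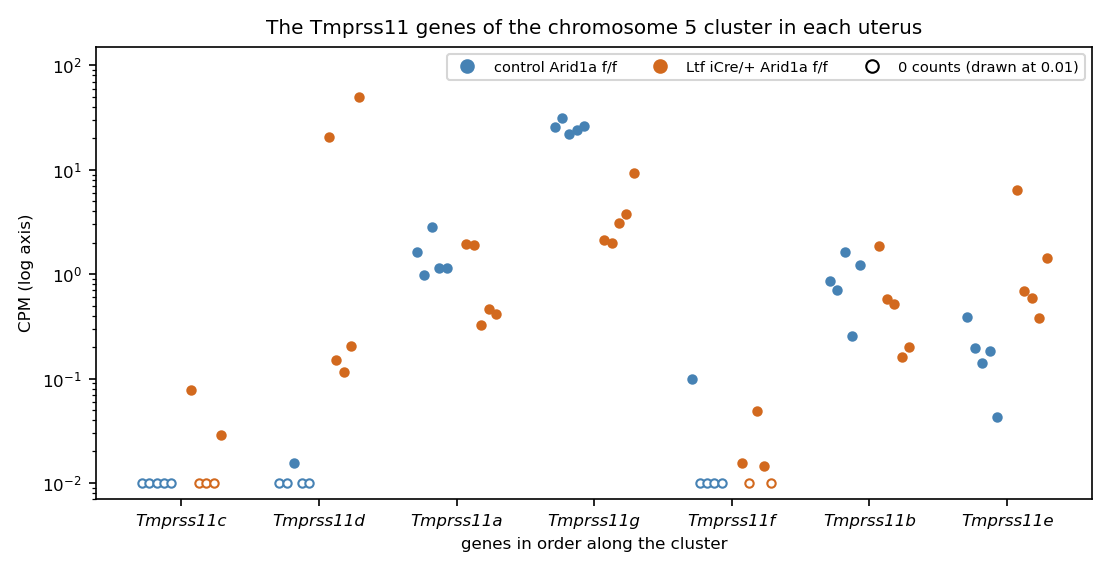
CPM on a log axis (y) of the 7 Tmprss11 genes of chromosome 5 in their order along the chromosome (x), with 1 point per uterus and open points at 0.01 for 0 counts. The iCre points of Tmprss11g lie below the controls at 1.98 to 9.24 CPM, and those of Tmprss11d lie above them and span 0.114 to 49.5 CPM.

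Promoter sequence was at hand in RefSeq (GRCm38.p6) for 5 of the 10 genes, *Tmprss11d*, *Tmprss2*, *Hpn*, *Spint1* and *Spint2*, with 6 start sites in all. Each window covers 250 bases before and 50 after a start. They are shown for *Tmprss11d* and *Tmprss11g*, genes of the same run with opposite signs, and for *Spint1*, the member with the tightest values. Shown are 250 bases before and 10 after the start, 5′ to 3′ on the gene's strand. Capitals mark a match to the AP-1 site TGANTCA.
Tmprss11d (chr5:86373378-86373637, minus strand): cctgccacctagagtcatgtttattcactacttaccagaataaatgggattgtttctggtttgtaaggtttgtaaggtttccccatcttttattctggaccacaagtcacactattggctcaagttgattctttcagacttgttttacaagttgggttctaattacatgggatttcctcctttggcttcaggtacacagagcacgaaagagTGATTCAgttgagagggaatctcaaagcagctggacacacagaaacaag
Tmprss11g (chr5:86518591-86518850, minus strand): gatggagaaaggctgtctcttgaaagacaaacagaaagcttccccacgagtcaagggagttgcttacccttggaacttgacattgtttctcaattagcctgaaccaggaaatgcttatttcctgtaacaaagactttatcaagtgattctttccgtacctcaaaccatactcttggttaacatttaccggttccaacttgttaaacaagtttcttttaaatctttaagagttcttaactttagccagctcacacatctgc
Spint1 (chr2:119237110-119237369, plus strand): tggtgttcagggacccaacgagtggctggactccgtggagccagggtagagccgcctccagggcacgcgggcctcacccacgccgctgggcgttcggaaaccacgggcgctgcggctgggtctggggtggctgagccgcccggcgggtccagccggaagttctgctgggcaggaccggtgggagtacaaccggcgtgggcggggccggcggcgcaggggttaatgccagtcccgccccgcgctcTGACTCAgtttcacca
The *Tmprss11d* match starts 39 bases and the *Spint1* match 6 bases before the start, and no other window of these genes, *Tmprss11g* included, held the letters on either strand. Of the 32851 promoters known to RefSeq there, 7.81% held TGANTCA. The grainyhead-like motif AACCNGGTT was in 0.271% of all promoters and in none of these. The GC box GGGCGG, in 35.7% of all promoters, had 3 matches each in *Spint1*, *Spint2* and 1 of the 2 windows of *Hpn*. The E-box CACCTG, in 20.2% of all promoters, had 3 matches each in *Spint2* and in the same *Hpn* window. A match is a run of letters and says nothing of binding, and no match of 1 motif overlapped a match of another.

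*Tmprss4* and *Tmprss2* encode related transmembrane proteases of epithelia, of which TMPRSS2 is best known for cutting viral envelope proteins. *Tmprss4* (ENSMUSG00000032091, chromosome 9, 45172726 to 45204092) had 11.7, 10.4, 11.4, 12.9 and 14.5 CPM in controls 1 to 5. In iCre uteri it had 67.2, 25.1, 22.7, 33.1 and 85.2 CPM. Even the lowest iCre uterus, replicate 3, was above the highest control. This was a log2 fold change of 1.94 (SE 0.35), or 3.83-fold, from 12.2 ± 1.57 to 46.6 ± 28.0 CPM (SD, n = 5 each), and it was 1.15 (SE 0.14) without replicates 1 and 5. Genes on its opposite strand, *Gm17099* and *BC049352*, had at most 12 and 24 counts in a uterus.

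*Tmprss2* (ENSMUSG00000000385, chromosome 16, 97564682 to 97611195) behaved differently from *Tmprss4*. It had 99.3, 104, 89.2, 123 and 114 CPM in controls and 59.7, 100, 130, 132 and 99.6 CPM in iCre replicates 1 to 5. Its means of 106 ± 13.0 and 104 ± 29.4 CPM (SD, n = 5 each) gave a log2 fold change of -0.02 (SE 0.19). The lowest value of all 10 uteri was that of iCre replicate 1, in which 6 of the other genes had their highest. It was 0.19 (SE 0.12) without replicates 1 and 5.

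**Figure D3:**
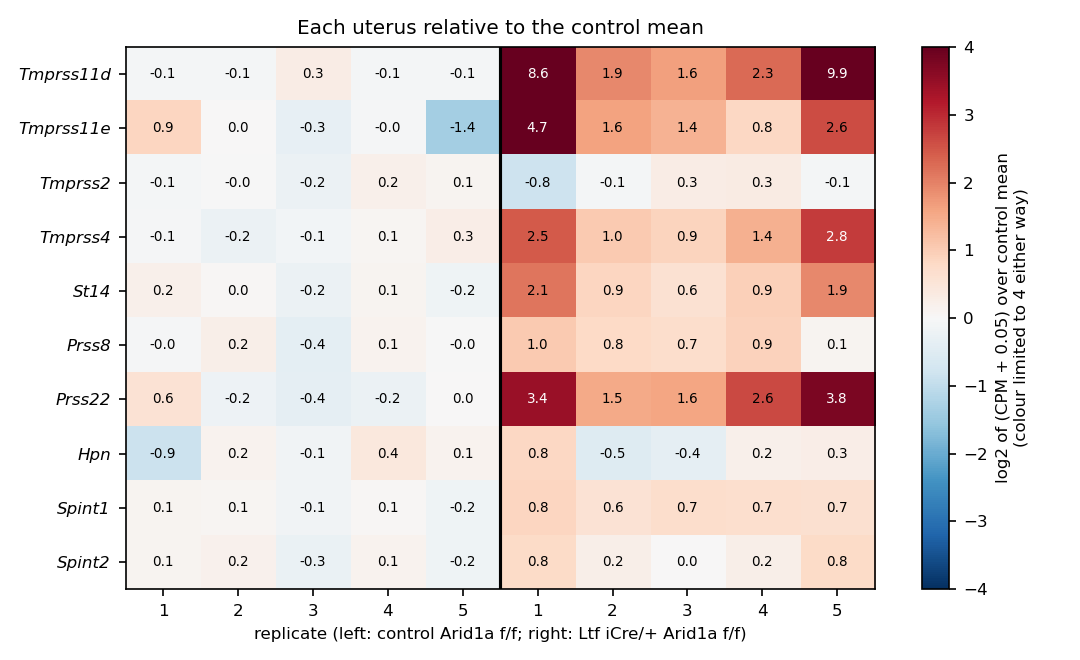
The log2 of (CPM + 0.05) of each gene (rows) in each uterus (columns; controls left, iCre right) over the control mean, with the colour limited to 4 in either direction. The iCre columns 1 and 5 hold the largest values for Tmprss11d, Tmprss4, St14 and Prss22, whereas the Spint1 row is even across the iCre uteri and Tmprss2 is lowest in iCre replicate 1.

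*St14* (ENSMUSG00000031995, chromosome 9, 31089402 to 31131853) encodes matriptase, which activates prostasin and cuts PAR2 and the precursor of hepatocyte growth factor. Its values were 56.2, 50.7, 42.0, 53.0 and 43.5 CPM in controls. They were 217, 89.0, 75.0, 94.4 and 185 CPM in iCre uteri. All iCre uteri were above all controls, again with replicates 1 and 5 in front. The log2 fold change was 1.43 (SE 0.28), or 2.69-fold, from 49.1 ± 6.10 to 132 ± 64.3 CPM (SD, n = 5 each). It was 0.81 (SE 0.11) without replicates 1 and 5. *St14* and *Tmprss4* lie on chromosome 9 with *Ltf*, at 79.9 and 65.8 Mb from it.

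*Prss8* (ENSMUSG00000030800, chromosome 7, 127925716 to 127930104) encodes prostasin, a protease with a lipid anchor that raises the activity of epithelial sodium channels. Controls had 22.5, 27.4, 17.8, 25.3 and 22.8 CPM. The iCre uteri had 47.5, 40.2, 38.0, 44.3 and 24.9 CPM, so that replicate 5, among the highest for *Tmprss4* and *St14*, was the lowest iCre uterus here and inside the control range. The log2 fold change of 0.75 (SE 0.17), or 1.68-fold, did not rest on replicates 1 and 5, without which it was 0.82 (SE 0.13). *Kat8*, which overlaps *Prss8* on the opposite strand, had 19.1 to 23.2 CPM in controls and 16.8 to 20.4 CPM in iCre uteri. Whether counting used strand is not given in the sources used here, and how reads of the shared stretch were assigned was not tested.

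*Prss22* (ENSMUSG00000045027, chromosome 17, 23993534 to 23998100) is a tryptase-like protease that is usually described as secreted, so it departs from the name of the group. Controls had 0.462, 0.251, 0.219, 0.241 and 0.301 CPM. The iCre uteri had 3.70, 0.946, 0.981, 2.11 and 4.66 CPM. The lowest iCre uterus was above the highest control, and replicates 1 and 5 were the highest once more. Together this gave a log2 fold change of 3.06 (SE 0.49), or 8.35-fold, and 2.18 (SE 0.36) without replicates 1 and 5.

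*Hpn* (ENSMUSG00000001249, chromosome 7, 31098725 to 31115290) encodes hepsin, a transmembrane protease best known from liver. Its values were 4.46, 9.14, 7.43, 11 and 9.02 CPM in controls and 14.5, 5.70, 6.34, 9.53 and 9.84 CPM in iCre uteri. The groups overlapped widely, and both extremes were replicate 1 of their group. *Hpn* had a log2 fold change of 0.16 (SE 0.29), with -0.06 without iCre replicate 1 and 0.29 without control replicate 4. Without iCre replicates 1 and 5 it was -0.19 (SE 0.27).

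Both inhibitors had smaller log2 fold changes than 6 of the 8 proteases, though *Spint1* lay within 1 SE of *Prss8* at 0.75 (SE 0.17). *Spint1* (ENSMUSG00000027315, chromosome 2, 119237362 to 119249527), the gene of HAI-1, had 25.6, 25.2, 21.6, 24.6 and 21.2 CPM in controls. In iCre uteri it had 42.6, 35.4, 38.3, 37.9 and 37.3 CPM. The groups did not overlap, and the iCre values were close together, 38.3 ± 2.66 against 23.6 ± 2.09 CPM (SD, n = 5 each). For *Spint1* the log2 fold change was 0.70 (SE 0.09), or 1.62-fold, and 0.65 (SE 0.09) without replicates 1 and 5.

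*Spint2* (ENSMUSG00000074227, chromosome 7, 29256323 to 29281912), the gene of HAI-2, had 121, 126, 94.0, 124 and 101 CPM in controls. The iCre values were 194, 134, 113, 133 and 192 CPM. Replicates 1 and 5 were well above the controls, replicates 2 and 4 were just above the highest control, and replicate 3 lay inside the control range. The log2 fold change of 0.44 (SE 0.16), or 1.35-fold, was 0.16 (SE 0.11) without replicates 1 and 5.

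Levels were also divided by the length of each gene's merged annotated exons (CPM per kb), which need not be the length of the transcripts made. The order of the genes depends on this length. Without it *St14* had 49.1 and *Spint1* 23.6 CPM in controls, the reverse of their order below. On this scale *Spint2* was the most abundant of the 10 genes in controls at 24.9 ± 3.23 CPM per kb (SD, n = 5). Below it stood *Tmprss2* at 14.5 ± 1.79 and *Prss8* at 12.5 ± 1.94 CPM per kb, whose ranges overlapped. *Spint1* at 8.55 ± 0.755 CPM per kb came next, above *St14* at 6.43 ± 0.799 and *Tmprss4* at 4.70 ± 0.609 CPM per kb, which overlapped each other. *Hpn* had 2.00 ± 0.596 CPM per kb, and *Prss22* and *Tmprss11e* stood at 0.223 ± 0.0739 and 0.0559 ± 0.0372 CPM per kb. In iCre uteri *Spint2* was again first at 33.6 ± 8.16 CPM per kb (SD, n = 5). *Prss8* at 21.1 ± 4.69, *Tmprss4* at 18 ± 10.8, *St14* at 17.3 ± 8.42, *Tmprss2* at 14.3 ± 4.02 and *Spint1* at 13.8 ± 0.961 CPM per kb followed, in ranges that overlapped from each to the next. The place of *St14* and *Tmprss4* above *Spint1* and *Tmprss2* rested on replicates 1 and 5, with 28.4 and 24.2 CPM per kb for *St14* and 25.9 and 32.9 for *Tmprss4*. In replicates 2, 3 and 4 *St14* (9.81 to 12.4 CPM per kb) and *Tmprss4* (8.78 to 12.8) lay below *Spint1* and *Tmprss2* of the same uterus, as they did in controls.

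Since an inhibitor acts on a protease in the same tissue, the ratio of their CPM per kb was formed within each uterus. It describes RNA and not enzyme activity. The size of a ratio depends on the exon lengths used, so a value above or below 1 is not read. The same lengths enter both genotypes. *St14* over *Spint1* was 0.794, 0.728, 0.704, 0.781 and 0.744 in controls. In iCre uteri it was 1.84, 0.909, 0.709, 0.901 and 1.79, so that replicate 3 was inside the control range and replicates 1 and 5 were far above it. *St14* over *Spint2* was 0.259 ± 0.0140 in controls and 0.491 ± 0.124 in iCre uteri (SD, n = 5 each). Here the groups did not overlap, with 0.395 as the lowest iCre value and 0.277 as the highest control value. For *Tmprss4* over *Spint2* they did not overlap either, at 0.193 ± 0.0418 and 0.502 ± 0.191. *St14* and *Tmprss4* separated the groups before the division too, and were chosen with their fold changes known. The share of other gene pairs whose ratio separates the groups was not formed, and nothing is read from the separation. *Tmprss2* over *Spint2* overlapped and had the lower mean in iCre uteri, 0.588 ± 0.0804 and 0.464 ± 0.213, with 0.192 in replicate 1 as the lowest. *Prss8* over *Spint1* was 1.46 ± 0.178 in controls and 1.52 ± 0.306 in iCre uteri, within which replicate 5 was the lowest at 1.00. *Prss8* over *Spint2* was 0.503 ± 0.0419 and 0.661 ± 0.211, again with replicate 5 lowest at 0.320. For the ratio of *Prss8* to *Spint1*, replicates 1, 2 and 4 lay just above the control range, replicate 3 inside it and replicate 5 below it.

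**Figure D4:**
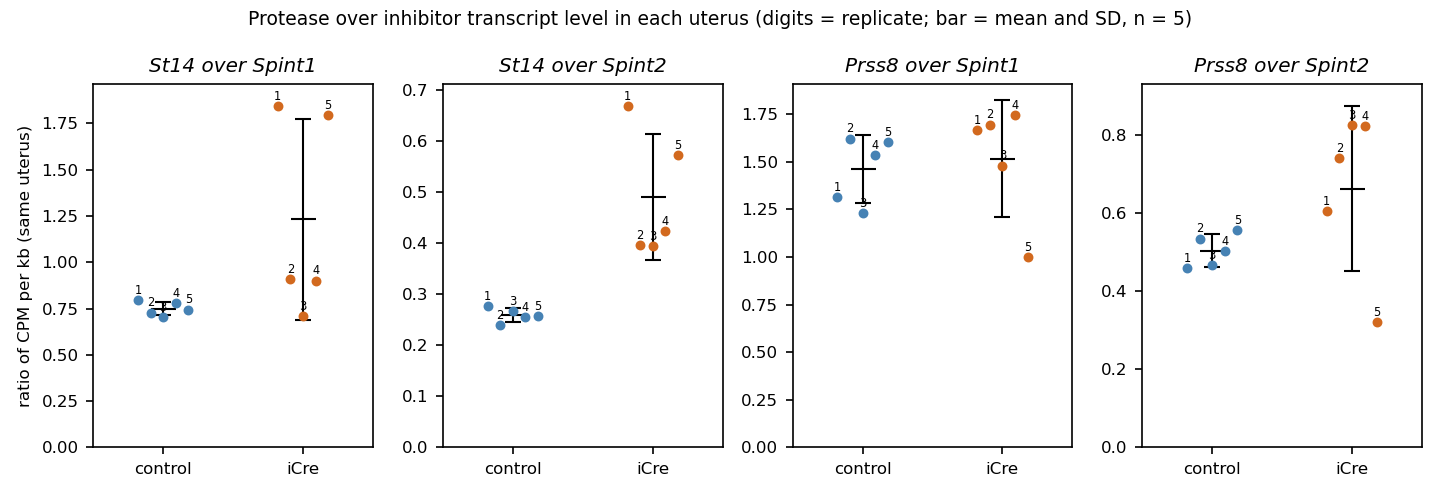
Ratio of protease to inhibitor CPM per kb in the same uterus (y axis, from 0) for St14 and Prss8 over Spint1 and Spint2 in control and iCre uteri (x axis), with points numbered by replicate and bars for mean and SD. St14 over Spint2 separates the groups at 0.395 and above against 0.277 and below, and the other 3 ratios overlap.

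Epithelial markers were set beside these values. Of the 11 markers 6 rose in iCre uteri and 0 fell in edgeR's test (median log2 fold change 0.70). For this and the later marker lists, the share of all tested genes past that threshold was 9.7%. The keratin *Krt7* (21.7 ± 1.02 to 77.1 ± 53.3 CPM, log2 fold change 1.83, adjusted p = 0.0140) and E-cadherin *Cdh1* (237 ± 29.1 to 419 ± 105 CPM, log2 fold change 0.82, adjusted p = 0.0106) stayed past edgeR's threshold with each uterus omitted. *Elf3* (log2 fold change 1.90, adjusted p = 0.0373), *Krt8* (0.87, adjusted p = 0.0220) and *Krt19* (0.77, adjusted p = 0.0289) did not. *Elf3* missed it without any 1 of the 5 controls or iCre replicate 1 or 5 (edgeR adjusted p up to 0.0887), *Krt8* without control 2, 3 or 5 (up to 0.0617) and *Krt19* without control 1, 2, 3 or 5 (up to 0.0737). *Cldn3*, named after its values were seen, went the other way in the uteri with the most *St14* and *Tmprss4*, with 78.7 and 59.2 CPM in iCre replicates 1 and 5 against 121 to 186 CPM in controls (edgeR adjusted p = 0.558 over all uteri). The marker sum was 908 to 1218 CPM in controls and 1252 to 2443 CPM in iCre uteri, and the mean log2 CPM of the markers was higher by 0.62 in iCre uteri, highest in replicate 1 at 7.30.

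The genes were also put relative to that mean in the same uterus. This scale was added after the data had been seen and takes the same 0.62 from every gene's difference. On it all 5 iCre uteri lay above all controls for *Tmprss11d*, *Tmprss4*, *St14* and *Prss22*. The share of all tested genes with that pattern was not formed on this scale, and nothing is read from the count. With at most 1 count in a control, the *Tmprss11d* control values here rest mainly on the prior count and the marker mean. The difference in log2 CPM was 1.74 per library and 1.12 relative to the markers for *Tmprss4*. For *St14* these values were 1.30 and 0.68, and for *Prss22* they were 2.71 and 2.09. *Prss8* and *Spint1* kept 0.11 of 0.73 and 0.08 of 0.70, and neither separated the groups on this scale. Genes whose difference per library was under 0.62 are below 0 on this scale by construction, at -0.21 for *Spint2*, -0.48 for *Hpn* and -0.69 for *Tmprss2*. The part of the epithelial markers in the members' values was not tested further, and 6 of these markers had themselves risen.

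**Figure D5:**
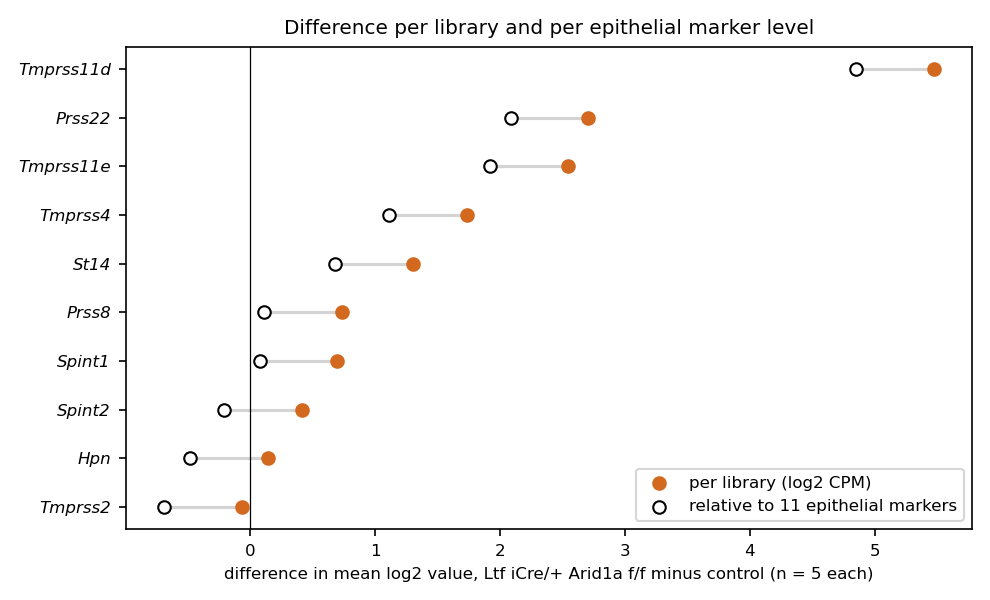
Difference in mean log2 value between iCre and control uteri (x axis, n = 5 each) of each gene (y axis), per library (filled) and relative to the mean log2 CPM of 11 epithelial markers (open). Every gene is shifted by 0.62: St14 keeps 0.68, Spint1 lies at 0.08, and Spint2, Hpn and Tmprss2 lie below 0.

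Stratified squamous epithelium, in which Tmprss11 genes are also made, was sought through 12 markers. Of the 11 that could be tested 0 passed edgeR's threshold (1 had an unadjusted p under 0.05), DESeq2 called 1 (*Lgals7*, named for that call, adjusted p = 0.0187), and the squamous sum was 11.1 to 28.7 CPM in controls and 9.18 to 25.4 CPM in iCre uteri. The keratin *Krt6a* had 0 counts in all 10 uteri. *Krt15* stood at 6.28 ± 5.29 and 3.17 ± 3.47 CPM (SD, n = 5 each) and *Sbsn* at 5.69 ± 1.52 and 7.42 ± 2.13 CPM. Among 10 leukocyte markers 2 rose in edgeR's test and 0 fell, the T cell gene *Cd3e* (2.25 ± 0.407 to 9.29 ± 4.67 CPM, log2 fold change 2.04, adjusted p = 0.00512) and the neutrophil gene *Ly6g* (log2 fold change 3.82, adjusted p = 0.0294). Without control 2, 3, 4 or 5 *Ly6g* missed the edgeR threshold (adjusted p up to 0.0761), and without iCre replicates 1 and 5 its log2 fold change was 1.24 (adjusted p = 0.142). *Ptprc* (72.3 ± 15.2 and 107 ± 38.6 CPM, edgeR adjusted p = 0.149) and *Csf1r* (47.8 ± 10.7 and 63.5 ± 37.5 CPM, edgeR adjusted p = 0.455) did not pass. The leukocyte sum was 133 to 237 CPM in controls and 182 to 1147 CPM in iCre uteri, highest in replicate 5, in which *Tmprss11d*, *Tmprss4* and *Prss22* were also highest. Most of the sum in replicate 5 was *S100a8* with 290 CPM and *S100a9* with 383 CPM. Neither passed edgeR's test (adjusted p = 0.0735 and 0.0813). Of 9 stromal and myometrial markers 1, *Vim*, fell (1120 ± 73 to 582 ± 173 CPM, log2 fold change -0.94, edgeR adjusted p = 0.0139), and the collagen genes *Col1a1* and *Col3a1* did not pass (edgeR adjusted p = 0.483 and 0.420). What part leukocytes or stroma had in the members' values was not tested.

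Other proteases and inhibitors were then counted from lists written from general knowledge with earlier results of these data known. For comparison, 5.19% of all genes tested by edgeR were called higher and 4.51% lower, with a median log2 fold change of 0.03. Nothing is read from these small counts, here or in the lists of inhibitors and substrates below. Of 20 further membrane-anchored serine proteases 15 could be tested, 0 rose and 1 fell, *Tmprss11g* (median log2 fold change 0.31). *Tmprss6*, matriptase-2, which limits hepcidin in liver, had the highest mean over all 10 uteri after *Tmprss11g*, at 2.05 ± 1.10 and 5.59 ± 3.87 CPM (SD, n = 5 each; edgeR adjusted p = 0.108). *Corin*, a protease that activates natriuretic peptide, named after its values were seen, stood at 3.46 ± 3.18 and 0.394 ± 0.320 CPM and was short of edgeR's threshold (adjusted p = 0.0559), though DESeq2 called it lower (adjusted p = 0.0187). Of 16 secreted serine proteases 14 were tested and 1 rose, the kallikrein *Klk10* (0.298 ± 0.241 to 3.29 ± 4.51 CPM, log2 fold change 3.46, edgeR adjusted p = 0.0390). *Klk10* missed the threshold without control 1, 2, 3 or 5 or iCre replicate 1 or 5 (edgeR adjusted p up to 0.0954), and had 1.44 without both of those iCre uteri. The abundant *Plat*, tissue plasminogen activator, stood at 142 ± 18.4 and 195 ± 163 CPM (edgeR adjusted p = 0.524) and *Prss23* at 125 ± 21.3 and 168 ± 86.3 CPM (edgeR adjusted p = 0.377).

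Among 15 other protease inhibitors 13 were tested, and 2 rose and 0 fell (median log2 fold change -0.06). *Wfdc2*, a whey acidic protein domain gene of epithelia, rose 2.22-fold, from 133 ± 21.4 to 295 ± 99.1 CPM (SD, n = 5 each; edgeR adjusted p = 0.0138), and passed with each uterus omitted. *Ambp*, the gene of bikunin, had at most 1 count in a control uterus and 2 to 30 counts in iCre uteri, with a mean at least 4.49-fold and a median at least 3.12-fold above the floor of 3 counts per library (edgeR adjusted p = 0.0190, or 0.0527 without control 2 and 0.104 without iCre replicates 1 and 5). *Tfpi*, a Kunitz inhibitor of coagulation, stood at 127 ± 16.2 and 95.2 ± 18.2 CPM (edgeR adjusted p = 0.0786, or 0.0393 without iCre replicate 3).

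Of 15 substrates and partners of these enzymes 3 rose and 1 fell (median log2 fold change 0.56). The adhesion gene *Epcam* (88.6 ± 10.8 to 203 ± 113 CPM, log2 fold change 1.20, edgeR adjusted p = 0.0370) and the claudin *Cldn7* (54.7 ± 5.91 to 118 ± 50.6 CPM, log2 fold change 1.10, edgeR adjusted p = 0.0184) separated the groups. *Epcam* missed the threshold without any 1 of the controls or iCre replicate 1 or 5 (edgeR adjusted p up to 0.0917), and *Cldn7* without control 3 (adjusted p = 0.0546). Without both iCre replicates 1 and 5 the log2 fold changes were 0.45 for *Epcam* and 0.56 for *Cldn7*. Targets of prostasin and matriptase among the sodium channel and receptor genes, listed here for their role after their values were seen, did not pass with all 10 uteri. *Scnn1a* stood at 7.88 ± 1.85 and 12.9 ± 7.95 CPM (edgeR adjusted p = 0.333), with iCre replicates 2, 3 and 4 above every control and replicates 1 and 5 below every control. Without replicates 1 and 5 it was past the threshold (log2 fold change 1.23, edgeR adjusted p = 0.00245). *Met*, the receptor of hepatocyte growth factor, had a log2 fold change of 0.56 with all 10 uteri (edgeR adjusted p = 0.4055). Without replicates 1 and 5 its sign turned, at -0.45 (edgeR adjusted p = 0.0180). *Met* had 38.7 to 49.8 CPM in controls, 123.5 and 120.2 CPM in those replicates and 33.2 to 36.8 CPM in the other iCre uteri. *Scnn1b* stood at 20.6 ± 6 and 16.9 ± 8.29 CPM (edgeR adjusted p = 0.748) and *F2rl1*, the gene of PAR2, at 14.6 ± 1.96 and 17.5 ± 0.891 CPM (edgeR adjusted p = 0.152). *Scnn1g* had 2 to 13 counts in controls, 171 counts in iCre replicate 5 and 0 to 3 counts in the other iCre uteri (edgeR adjusted p = 0.310). *Hgf*, whose precursor matriptase cuts, stood at 42.1 ± 9.75 and 27.9 ± 12.4 CPM (edgeR adjusted p = 0.220).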

How the data were processed

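RNA of 10 uteri, 5 from each genotype, had been sequenced as 50 bp paired reads of mRNA libraries. Per the submitters' processing notes the authors used cutadapt 1.18, Trim Galore 0.6.4, FastQC 0.11.9 and STAR 2.7.3a with GRCm38, and they deposited 1 table of whole-number counts per gene (STAR GeneCounts), neither normalized nor filtered. The annotation release and strand setting are not given in the sources used here. Symbols came from a GENCODE annotation of GRCm38, which held 45143 of the 45706 identifiers.

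Genes averaging 1 count or more in the 10 samples were tested with edgeR 4.0.16 in R 4.3.3 (TMM, quasi-likelihood test with no covariate, Benjamini-Hochberg adjustment over all genes tested, threshold 0.05). SE is the absolute log2 fold change divided by the square root of the quasi-likelihood F statistic. DESeq2 1.42.0, other scaling and filters, the replicate number as a block and the omission of each uterus were alternatives. Procedures were tested on simulated data. Where no control library had more than 3 counts, folds are bounds against 3 counts per library and cover counting error only. Epithelial levels are means of log2 CPM with a prior count of 2. No libraries were duplicates. Litters are not given. The p-values set the genotype difference against the variation between these samples, which were taken as independent.

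The 10 genes and all lists were chosen with earlier results of these data known. Named besides them were *Arid1a*, *Ltf* and, from each list, up to 4 genes of largest absolute log2 fold change among those past the threshold and the 2 of highest mean CPM. Promoters were searched on both strands. Protein sequences were not used here, and 2 genes of the list of substrates and partners are counted in it but not reported here. Drawings were made with matplotlib 3.10.9.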

Additional observations from a re-analysis of the deposited data

Results flagged for a closer look

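Among 76 sets of 5 uteri (38 genes in each genotype), 3 had an extreme uterus whose gap to the next, on the log2 CPM scale and divided by the range of the set, was above the 95% critical value of 0.71. Chance gives about 1 such set in 20. For *Tmprss11d* the ratio was 1.0 because control replicate 3 had the only count among controls (0.0157 CPM). *Csf1r* was lowest in control replicate 1 (29.7 CPM, ratio 0.726). *Tfpi* was highest in control replicate 5 (155 CPM, ratio 0.756).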

How the results depend on the processing

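Counts are of genes with an adjusted p under 0.05. For all genes DESeq2 gave 4103 (16.3% of genes tested) in place of edgeR's 2438 (9.7%), and filterByExpr gave 2538. With 1 uterus left out the count was 1204 to 2381, with 1248 without control replicate 3. Without iCre replicates 1 and 5 it was 2358. Nothing is read from the counts of the chosen genes and lists that follow. Of the 10 protease and inhibitor genes 7 passed, 6 with edgeR's filterByExpr, which dropped *Tmprss11d*, and 4 (without control replicate 3: *Tmprss4*, *St14*, *Prss22* and *Spint1*) to 7 with 1 uterus left out. Without iCre replicates 1 and 5 they were 6, since *Tmprss11e* missed. DESeq2 called 3 other membrane-anchored proteases (edgeR 1), 2 secreted proteases (edgeR 1), 4 other inhibitors (edgeR 2), 1 squamous marker (edgeR 0) and 3 stromal and myometrial markers (edgeR 1). The filterByExpr setting gave 2 secreted proteases and 1 other inhibitor. Ranges with 1 uterus left out were 1 to 2 other membrane-anchored proteases, 0 to 1 secreted proteases, 1 to 3 other inhibitors, 1 to 5 substrates and partners, 2 to 7 epithelial, 0 to 1 squamous, 1 to 2 leukocyte and 1 to 2 stromal and myometrial markers. Without iCre replicates 1 and 5, chosen after seeing the data, 1 leukocyte marker passed (edgeR 2), *Plat* was at -0.47 in place of 0.46 (edgeR adjusted p = 0.0274), and *Spink1* (adjusted p = 0.0298), *Scnn1a*, *Met* and *Cldn4* (0.00343) passed while *Krt19* (0.0552) did not. The replicate number did not pair the samples (correlations of same-numbered uteri 0.02, 0.06, -0.05, 0.02 and 0.13, with replicates 2 and 5 closest to their own number). With the replicate block 1704 genes and the same 7 of the 10 genes passed, as did 2 other membrane-anchored proteases, 0 secreted proteases, 1 leukocyte marker and 2 stromal and myometrial markers, and *Elf3* (adjusted p = 0.108), *Epcam* (0.0741), *Klk10* (0.107), *Krt19* (0.0693) and *Ly6g* (0.0831) missed the threshold. The causes were not tested. Depth limits *Tmprss11d* in controls, which had 0 or 1 count, and to a lesser degree *Tmprss11e*, with 3 to 28 counts there.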
